A study of Mus musculus with 118 samples.

Results

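Class 3 semaphorins are secreted guidance proteins, and neuropilins and plexins are the receptors that read them. The group described here holds 9 genes of 23998 gene symbols in the count table, namely the ligands Sema3a, Sema3c and Sema3e, the co-receptors Nrp1 and Nrp2, and the plexins Plxna1, Plxna2, Plxna4 and Plxnd1. They were read in single SOM+ cells from L4 and L5 of the primary visual (V1) and primary somatosensory (S1) cortex of adult SOM-Cre/Ai9 mice of both sexes, without treatment. In these mice Cre recombinase made under the somatostatin gene switches on the red protein tdTomato, so cells that once expressed somatostatin stay labelled, and the labelled pool can hold cells that no longer express it. The cells were recorded in slices with a patch pipette, the content of each was drawn into the pipette, and its RNA was sequenced (Patch-seq). A cell was kept when at least 1500 genes were above 0, Sst was above 0 and Slc17a7, a marker of excitatory neurons, did not exceed the sum of Gad1 and Gad2. This kept 42 of 44 cells labelled V1 L4, 34 of 39 from S1 L4, 17 of 19 from V1 L5 and all 16 from S1 L5.

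The 9 genes were chosen by measured values of these same cells, with the layer contrast known, so the levels and differences below are descriptions and none of them was tested. The labels name no animal. Each area and layer was therefore 1 sample, cells were not replicates, and no p-value was computed. The date in each cell's name was used to split the cells further, and gave 9 dates in 2 series, of which the first holds 6 dates and all L5 cells. The layers were compared within the first series, with 33 L5 and 37 L4 cells, and the spread given beside a difference is the SD over dates with at least 2 cells of each group. The paper reports fewer mice for Patch-seq than there are dates, so the dates cannot all be taken as separate animals. Which dates share an animal is not known. The SD over dates is therefore not an SD over animals. Each count was scaled to its cell's total, which gives CPM, and is shown as log2(CPM + 1), in which a difference of 1 is a doubling well above 1 CPM.

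A semaphorin binds a cell surface receptor, and the plexin part of that receptor passes the signal on to the cytoskeleton, where it makes a growing axon or dendrite turn away, halt or, in some neurons, advance. Most class 3 semaphorins need a neuropilin to bind: Sema3a binds Nrp1 and signals through class A plexins, and Sema3c can use Nrp1 or Nrp2, also with Plxnd1. Sema3e differs from them, since it binds Plxnd1 directly and needs no neuropilin. In cortex these proteins are known for guiding axons and migrating interneurons and for shaping dendrites and synapses, and Sema3e with Plxnd1 and Sema3a with Nrp1 also act between neurons and blood vessels.

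The kept cells carried the markers of somatostatin interneurons. Sst was counted in every kept cell, as the filter requires, Gad1 in 100% of them, Gad2 in 98.2%, and Lhx6, a transcription factor of interneurons from the medial ganglionic eminence, in 80.7%. Total counts ran from 97904 to 3295232 per cell, with a median of 1111833. In the first series the median was 1001189 in L4 and 1066008 in L5. No molecular identifiers were used, so PCR copies count as separate reads and every interval below covers counting error only.

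The 3 ligand genes lie on chromosome 5 of GRCm38, on the plus strand, in the GENCODE M21 annotation: Sema3a from 13125414 to 13602565, Sema3e from 14025276 to 14256689 and Sema3c from 17574281 to 17730268. Plxna1 (chromosome 6, from 89316314 to 89362620), Plxna4 (chromosome 6, from 32144268 to 32588192) and Plxnd1 (chromosome 6, from 115954811 to 115995005) are all on the minus strand. Nrp2 (from 62703285 to 62818695) and Plxna2 (from 194618218 to 194816869) are on chromosome 1, and Nrp1 is on chromosome 8, from 128358604 to 128503363, all of them on the plus strand. Exons of Plxna1 overlap those of Gm26811 and exons of Plxna4 those of Plxna4os3 on the opposite strand, and Nrp1 overlaps Mir1903 on its own strand. Whether the counting used strand is not given in the sources used here, so reads of these overlapping exons cannot be told apart.

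The promoters of the ligands are shown because all 3 of these genes were higher in L5 than in L4 in every date that could be compared. Each window runs from 250 bases before to 50 after the RefSeq start on GRCm38.p6, and 7 of the 9 genes had an entry (not Plxna1 and Plxna4). The letters of the TATA box (TATAAA), of the CCAAT box and of the core of the GC box (GGGCGG) were searched for on both strands, and their matches are in capitals (a match on the minus strand reads CCGCCC). Sema3a is at chr5:13396534-13396833, Sema3c at chr5:17574566-17574865 and Sema3e at chr5:14025026-14025325, all on the plus strand.
Sema3a: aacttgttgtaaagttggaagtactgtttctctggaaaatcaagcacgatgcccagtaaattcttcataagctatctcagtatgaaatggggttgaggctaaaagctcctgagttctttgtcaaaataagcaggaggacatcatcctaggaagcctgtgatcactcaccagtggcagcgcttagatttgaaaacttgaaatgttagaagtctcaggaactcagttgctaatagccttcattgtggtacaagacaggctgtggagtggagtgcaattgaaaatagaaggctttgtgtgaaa
Sema3c: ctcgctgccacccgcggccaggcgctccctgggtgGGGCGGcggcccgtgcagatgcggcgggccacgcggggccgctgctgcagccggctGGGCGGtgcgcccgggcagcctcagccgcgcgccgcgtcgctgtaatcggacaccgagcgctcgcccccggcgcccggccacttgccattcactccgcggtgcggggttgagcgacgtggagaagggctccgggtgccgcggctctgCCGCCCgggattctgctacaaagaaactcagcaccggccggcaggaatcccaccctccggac
Sema3e: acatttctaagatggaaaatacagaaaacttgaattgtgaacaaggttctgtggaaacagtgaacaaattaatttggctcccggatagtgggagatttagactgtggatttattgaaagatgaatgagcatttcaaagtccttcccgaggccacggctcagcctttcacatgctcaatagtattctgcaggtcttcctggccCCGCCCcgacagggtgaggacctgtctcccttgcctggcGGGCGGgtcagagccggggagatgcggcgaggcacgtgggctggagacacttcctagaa
The RefSeq starts of Sema3a and Sema3c lie inside the genes as GENCODE M21 draws them, downstream of their outermost starts. None of the 3 windows holds TATAAA or CCAAT, which occur in 13.6% and 37.4% of 32851 promoters of the same length. GGGCGG occurs 3 times in Sema3c, 2 times in Sema3e and not in Sema3a, beside 35.7% of all promoters with at least 1 match. The windows also differ in base composition, with 42 CG steps and 75.7% G or C in Sema3c, 11 and 50.7% in Sema3e and 2 and 41.3% in Sema3a, beside medians of 7 and 52.7% over all promoters.

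The plexins A were the receptors read in most cells, Plxna2 in 87.2%, Plxna1 in 66.1% and Plxna4 in 60.6% of the kept cells. Of the ligands Sema3a was read in 46.8%, Sema3e in 30.3% and Sema3c in 10.1%, and of the other receptors Nrp2 in 14.7%, Nrp1 in 3.67% and Plxnd1 in 0.917%. Per gene length, as deposited RPKM averaged over all kept cells, the order was Plxna2 with 17.8, Sema3a with 11.4, Plxna1 with 9.99, Plxna4 with 4.85 and Sema3e with 4.19 RPKM. The other 4 genes were each under 1 RPKM, Sema3c at 0.697, Nrp2 at 0.658, Nrp1 at 0.602 and Plxnd1 at 0.00666. The 4 group means ranged from 15.2 to 19.3 RPKM for Plxna2, from 4.48 to 17.1 for Sema3a, from 3.52 to 13.7 for Plxna1, from 2.41 to 7.08 for Plxna4 and from 0.111 to 11.1 for Sema3e. Each of these ranges overlaps the next one in the order, so no neighbours among the 5 differ beyond the spread between groups. For Nrp2 the 2 deposited tables part: 10 of the 16 cells with Nrp2 counts, which hold 55.6% of its counts, are listed at 0 RPKM, while for the other 8 genes every cell with a count has an RPKM above 0. The place of Nrp2 in this order therefore rests on 6 cells, and its counts are used below.

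**Figure D1:**
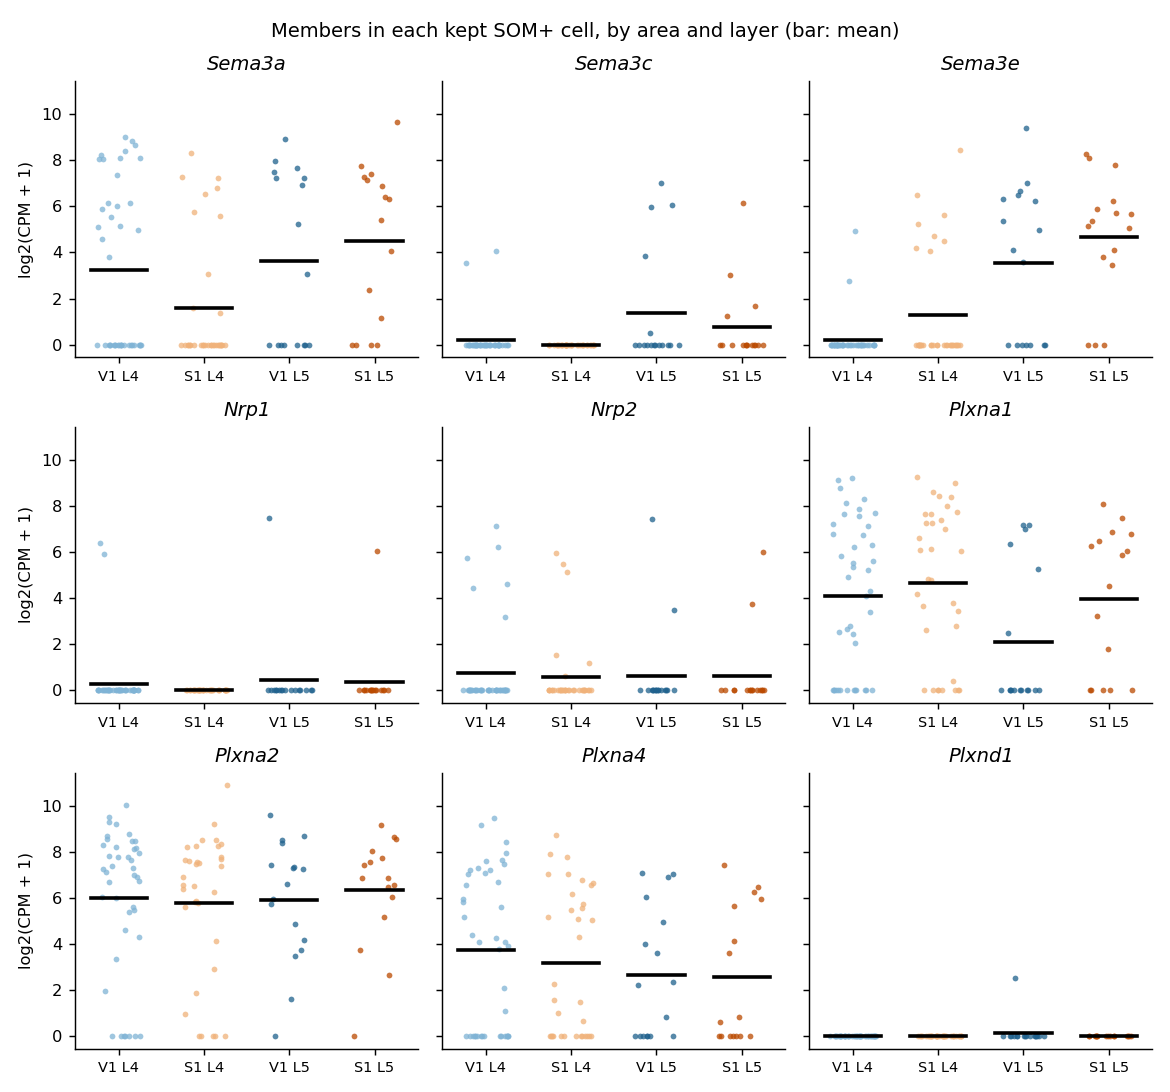
Each point is 1 kept SOM+ cell, with log2(CPM + 1) of the gene on the y axis, the area and layer on the x axis (42, 34, 17 and 16 cells in turn) and a black bar at the mean. Sema3e sits at 0 in nearly all V1 L4 cells and above 0 in 13 of 16 S1 L5 cells, and Plxnd1 is above 0 in 1 cell.

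Sema3e, the ligand of Plxnd1, was the member that parted the layers most. In V1 L4 its lowest and median values were 0 CPM and its highest was 29.4 CPM, with reads in 2 of 42 cells (4.76%, 95% Clopper-Pearson interval 0.582 to 16.2%). In S1 L4 the lowest and median were also 0 CPM and the highest 343 CPM, with reads in 8 of 34 cells (23.5%, interval 10.7 to 41.2%). V1 L5 ran from 0 CPM over a median of 16.5 to 671 CPM, with reads in 10 of 17 cells (58.8%, interval 32.9 to 81.6%). S1 L5 ran from 0 over a median of 37.6 to 307 CPM, with reads in 13 of 16 cells (81.2%, interval 54.4 to 96.0%). The ranges of the groups overlap because every group has cells at 0, and the order of the means was S1 L5 at 4.66, V1 L5 at 3.54, S1 L4 at 1.27 and V1 L4 at 0.18 log2(CPM + 1). The SD over cells was 2.70 in S1 L5, 3.29 in V1 L5, 2.42 in S1 L4 and 0.86 in V1 L4. Each gap between neighbours in this order was under the larger SD of the 2 groups.

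Within the first series the mean log2(CPM + 1) of Sema3e was 4.08 in L5 and 0.48 in L4. The difference of 3.60 (SD 0.81 over 4 dates) ranked 5 of the 8921 genes with at least 32 counts in at least 10 of these cells. The members were chosen with this contrast known, so nothing is read from the rank. Sema3e passed that filter through L5, since only 4 L4 cells had a read of it. The difference was 3.25, 4.83, 3.12 and 4.196 in dates 3, 4, 5 and 6, with no Sema3e read in any L4 cell of dates 3, 4 and 6. Reads were found in 23 of 33 L5 cells (69.7%) and 4 of 37 L4 cells (10.8%), and, with each cell thinned to 250000 reads, in 21 of 30 (70.0%) and 4 of 37 (10.8%), so the gap in the share of cells was as large at equal depth. Pooled over cells, the level was 84.1 CPM in L5 (95% Poisson interval 81.2 to 87.0) and 3.85 CPM in L4 (interval 3.30 to 4.47). A single V1 L5 cell, with 1043 counts, held 67.2% of the V1 L5 counts, but without the cell with the most reads in each group the difference was 3.55.

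**Figure D2:**
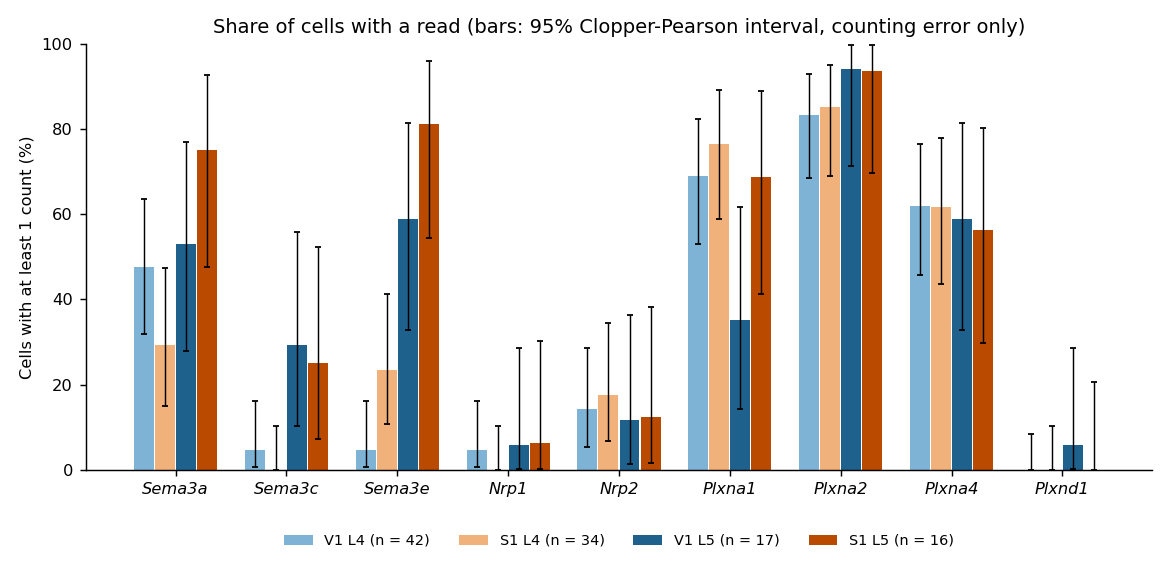
Bars give the percent of cells with at least 1 count of each gene (y axis) in the 4 groups of area and layer, and black lines the 95% Clopper-Pearson interval, which covers counting error only. Sema3e goes from 4.76% of V1 L4 cells to 81.2% of S1 L5 cells, while Plxna2 is at 83.3% or more in each group.

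Sema3a, the ligand that collapses growth cones through Nrp1 and class A plexins, was read in all 4 groups. V1 L4 ran from 0 CPM over a median of 0 to 513 CPM, with reads in 20 of 42 cells (47.6%). S1 L4 ran from 0 over a median of 0 to 314 CPM, with reads in 10 of 34 cells (29.4%). V1 L5 ran from 0 over a median of 7.49 to 491 CPM, with reads in 9 of 17 cells (52.9%), and S1 L5 from 0 over a median of 59.3 to 819 CPM, with reads in 12 of 16 cells (75%). In every group cells at 0 stood beside cells above 300 CPM. In means, S1 L5 was highest at 4.49, V1 L5 at 3.64, V1 L4 at 3.24 and S1 L4 at 1.57 log2(CPM + 1), and with SDs over cells of 2.79 to 3.74 no neighbours differ beyond that spread.

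In the first series Sema3a had a mean of 4.05 in L5 and 1.72 in L4. Its difference of 2.33 (SD 0.61 over 4 dates) was 1.57, 2.41, 2.96 and 1.87 in dates 3 to 6, and ranked 59 of 8921. The rank is again on a contrast known when the members were chosen, so nothing is read from it. Like Sema3e, Sema3a passed the filter for these 8921 genes through L5, since too few first-series L4 cells reached the counts that filter requires. Reads were found in 21 of 33 L5 cells (63.6%) and 11 of 37 L4 cells (29.7%). The L4 level depended on the series: the mean of V1 L4 was 2.06 in the first series and 4.43 in the second, with reads in 7 of 21 and 13 of 21 cells. The second series holds no L5 cell, so the layers could be compared in first-series cells only. The second-series V1 L4 mean was above the 3.64 of V1 L5. S1 L4 was at 1.28 in the first and 1.83 in the second series, both below the 4.49 of S1 L5.

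Sema3c, which can signal through neuropilins and Plxnd1, was sparse. It was read in 2 of 42 V1 L4 cells (8 and 19 counts), 0 of 34 S1 L4 cells, which allows a share of up to 8.82% of cells by a limit of 3 counts and 10.3% by the Clopper-Pearson interval, 5 of 17 V1 L5 cells and 4 of 16 S1 L5 cells. The highest cell was in V1 L5, with 238 counts (128.7 CPM), and 3 of the 9 L5 cells had 1 or 4 counts. In the first series the mean was 1.08 in L5 and 0.21 in L4, and the difference of 0.87 was 2.12, 0.65, 0.68 and 0.90 in dates 3 to 6, in all of which no L4 cell had a read. Sema3c did not reach 32 counts in 10 cells and was not among the 8921 genes. At a count of at least 5, reads remained in 6 of 33 L5 cells and 2 of 37 L4 cells.

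The L5 cells with Sema3c were mostly cells with Sema3e, and the L5 cells with Sema3a were mostly cells with Sema3e as well. In L5, 8 of the 9 cells with Sema3c also had Sema3e (88.9%), which is 34.8% of the 23 Sema3e cells. Sema3a and Sema3e were read together in 17 of 33 L5 cells, 81.0% of the cells with Sema3a and 73.9% of those with Sema3e. In first-series L4 the same pair was found together in 2 of 37 cells, 18.2% of the cells with Sema3a and 50% of the 4 cells with Sema3e. At least 1 of the 3 ligands was read in 27 of 33 L5 cells (81.8%) and 14 of 37 first-series L4 cells (37.8%), and more than 1 in 22 and 3 cells. Since each ligand alone was read in more L5 cells, more overlap follows from the shares themselves, and no test of it was run.

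**Figure D3:**
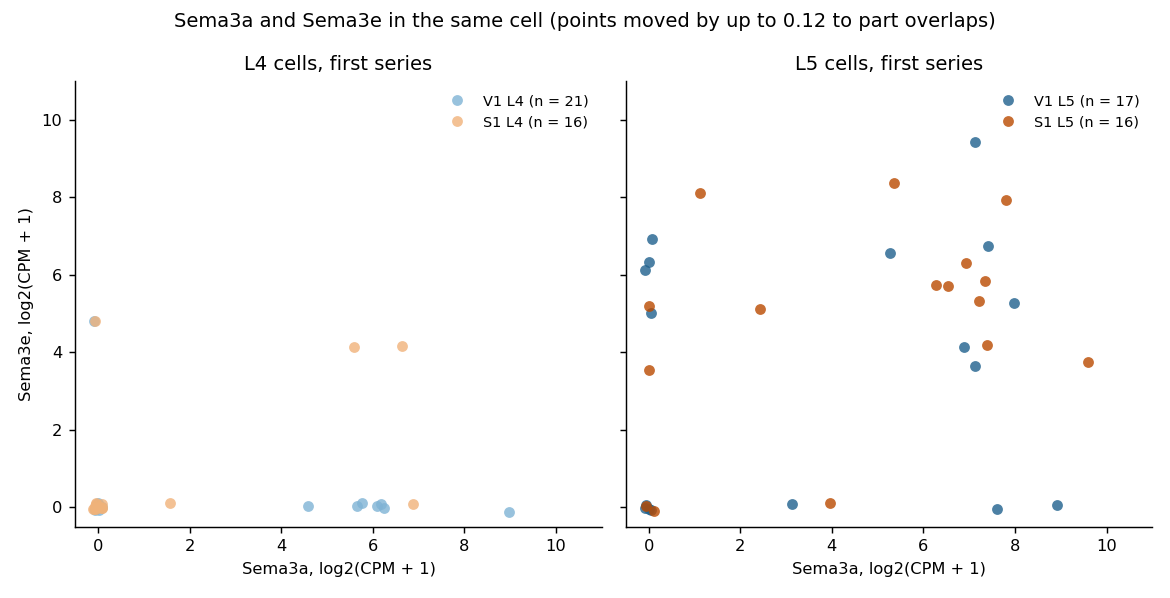
Each point is 1 first-series cell, with log2(CPM + 1) of Sema3a on the x axis and of Sema3e on the y axis, L4 on the left (21 V1 and 16 S1 cells) and L5 on the right (17 V1 and 16 S1 cells), each moved by up to 0.12 to part overlaps. Both genes are above 0 in 2 L4 cells and in 17 L5 cells.

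Of the receptors, Plxna2 was read in most cells of every group and parted neither layers nor areas beyond the spread over dates. It ran from 0 CPM over a median of 144.3 to 1053 CPM in V1 L4 and from 0 over 107.5 to 1901 CPM in S1 L4. It ran from 0 over 96.0 to 772 CPM in V1 L5 and from 0 over 115.5 to 569 CPM in S1 L5. Reads were found in 35 of 42, 29 of 34, 16 of 17 and 15 of 16 cells. The group means lay between 5.78 (S1 L4) and 6.34 (S1 L5) log2(CPM + 1), with SDs over cells of 2.42 to 3.16. The layer difference was 0.58 (SD 1.84), higher in 2 dates and lower in 2.

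Plxna1, a class A plexin that partners with neuropilins, was the receptor with a layer difference, and it was lower in L5. V1 L4 ran from 0 CPM over a median of 24.02 to 594 CPM, with reads in 29 of 42 cells (69.0%), and S1 L4 from 0 over 46.0 to 616 CPM, with reads in 26 of 34 (76.5%). V1 L5 ran from 0 over 0 to 142.997 CPM, with reads in 6 of 17 cells (35.3%, interval 14.2 to 61.7%), and S1 L5 from 0 over 40.2 to 271 CPM, with reads in 11 of 16 (68.8%, interval 41.3 to 89.0%). The lowest group was V1 L5, and S1 L5 was close to V1 L4. In the first series the mean was 2.998 in L5 and 4.45 in L4, and the difference of -1.45 (SD 0.89) was -2.18, -2.18, -2.74 and -0.67 in dates 3 to 6. Reads were found there in 17 of 33 L5 cells (51.5%) and 25 of 37 L4 cells (67.6%). By area, first-series L4 had reads in 12 of 21 V1 cells (57.1%) and 13 of 16 S1 cells (81.2%). The layer difference in S1 alone was 1.01, -3.33 and -4.51 in dates 3, 4 and 5. In V1 alone it was -6.50 and -2.07 in dates 3 and 5. Among cells with a read the median was 81.9 CPM in 17 L5 cells and 149.1 CPM in 25 L4 cells.

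Plxna4, the third class A plexin and a main partner of Nrp1 for Sema3a, was read in 26 of 42 V1 L4 cells, 21 of 34 S1 L4 cells, 10 of 17 V1 L5 cells and 9 of 16 S1 L5 cells. The medians were 16.04, 2.94, 3.63 and 0.662 CPM and the highest cells 698, 422, 132.8 and 169.4 CPM, with cells at 0 in each group. The order of the means was V1 L4 at 3.74, S1 L4 at 3.18, V1 L5 at 2.65 and S1 L5 at 2.56 log2(CPM + 1), with SDs over cells of 2.84 to 3.39, so no neighbours differ beyond that spread. Over all first-series cells the layer difference was -0.70. Within dates it was -3.57 in date 3 and 0.23, 0.51 and 2.32 in dates 4, 5 and 6, with a mean of -0.13. Without the cells of date 3 the layer difference was 0.15.

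The neuropilins and Plxnd1 were read in few cells. Nrp1, which binds Sema3a, was read in 4 of all kept cells (3.67%, interval 1.01 to 9.13%), at 83.5 and 60.1 CPM in 2 V1 L4 cells, 175.8 CPM in a V1 L5 cell and 65.2 CPM in an S1 L5 cell. Nrp2 was read in 16 cells, 6 in V1 L4, 6 in S1 L4 and 2 in either group of L5, and reached 173.6 CPM in V1 L5. Plxnd1, the receptor of Sema3e, was read in 1 cell, with 6 counts in V1 L5, and no L4 cell had a read, which allows a share of up to 7.14% in V1 and 8.82% in S1 by the limit of 3 counts (8.41% and 10.3% by the Clopper-Pearson interval). The layer differences of the 3 genes were 0.08, 0.07 and 0.08. A class A plexin was read in 40 of 42 V1 L4 cells, 32 of 34 S1 L4 cells, 16 of 17 V1 L5 cells and 16 of 16 S1 L5 cells. A neuropilin was read in 19 cells in all, and 86 cells had a class A plexin without a neuropilin read. Of the 33 cells with Sema3e, 1 had Plxnd1, and of the 51 cells with Sema3a, 1 had Nrp1.

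Neuropilins and Plxnd1 are also genes of blood vessels, so the vascular markers are given beside them. Of 8 endothelial markers, 4 had a read in each group of L4, 3 in V1 L5 cells and 2 in those of S1. Their summed level had a median of 0 CPM in every group, and its highest value was 138.9 CPM in L4 of V1, 124.4 in L4 of S1, 28.9 in L5 of V1 and 21.3 in L5 of S1. The vessel marker Ly6c1 was at 0 in all 4 groups, and Cldn5 in all but S1 L4. Others were read more widely: Pecam1 was at 0 only in S1 L5 and Tek only in S1 L4. An endothelial read was found in 1 of 4 Nrp1 cells, 2 of 16 Nrp2 cells, 1 of 11 Sema3c cells and the 1 Plxnd1 cell (13.4 CPM). Of the cells without the gene it was found in 22 of 93 for Nrp2, 23 of 98 for Sema3c and, likewise, 23 cells for Nrp1 and for Plxnd1. At least 1 of 8 mural and fibroblast markers was read in 26 kept cells, with a summed median of 0 CPM and a highest value of 523 CPM, in V1 L5. A mural or fibroblast read was found in 4 of 16 Nrp2 cells, 2 of 11 Sema3c cells, 0 of 4 Nrp1 cells and not in the Plxnd1 cell.

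For the layer contrast over many genes, a gene was called when its difference was at least 1 with the same sign in all 4 dates. Of 8921 genes 686 were called, 7.69%, of which 460 were higher and 226 lower in L5, with a median difference of 0.19. Of the 9 members 5 passed the filter on low counts, and 3 of these were called, Sema3e and Sema3a as higher and Plxna1 as lower in L5. This contrast was among the values the members were selected on, so nothing is read from the count. The same sign in every date, without the size, was found in 15.1% of the genes, and beside the called members it was found in Sema3c. The median of 0.19 over all genes is under the size for a call, so it could not turn the sign of a called difference.

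**Figure D4:**
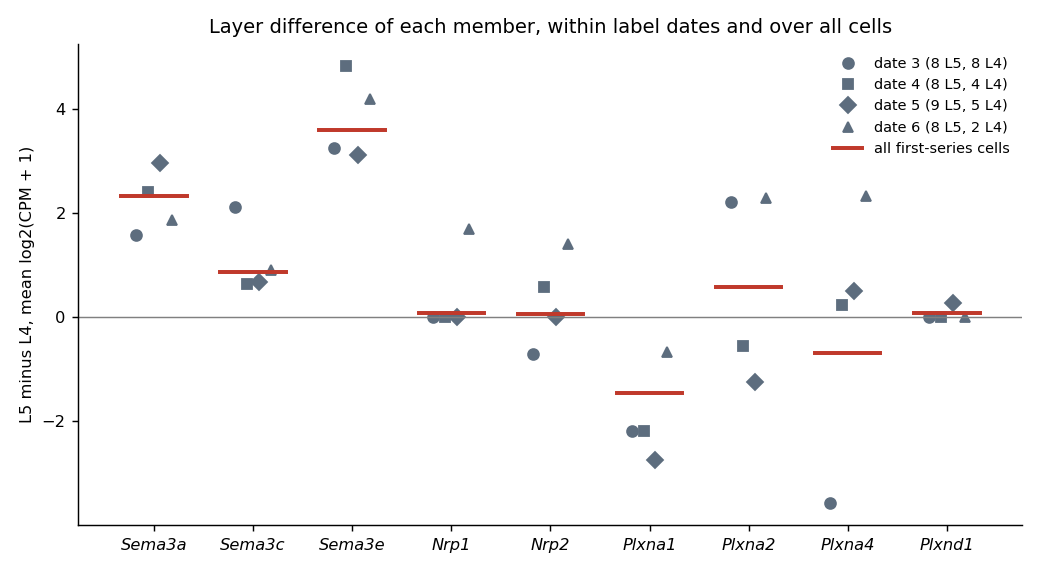
The y axis gives the L5 minus L4 difference of the mean log2(CPM + 1) for each gene on the x axis, with grey symbols for dates 3 to 6 (8 L5 and 8 L4, 8 and 4, 9 and 5, and 8 and 2 cells) and a red bar for all first-series cells. Sema3a, Sema3c and Sema3e are above 0 in all 4 dates and Plxna1 is below 0 in all 4, while Plxna4 spreads from -3.57 to 2.32.

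Markers of glia differed between the layers, without 1 direction. The 6 astrocyte markers were all read in both layers, with summed levels from 0 over a median of 7.04 to 5996 CPM in L4 and from 0 over 4.70 to 1428 CPM in L5, and a pooled level of 236 against 80.1 CPM. The 8 microglia markers, all read in both layers, had a lower median in L5 (180 CPM in L4 and 94.3 in L5) but a higher pooled level (374 and 462 CPM), with ranges of 0 to 2389 and 0 to 4226 CPM. The 7 oligodendrocyte markers, also all read in both layers, were higher in L5 on both measures, with medians of 121.5 and 190.9 CPM, pooled levels of 373.6 and 486 CPM and ranges of 0 to 4922 and 0 to 5581 CPM. In the kept cells whose summed glial and vascular markers were at most the median (55 cells in both series, 21 of them first-series L4), the difference was 3.57 for Sema3e, 1.86 for Sema3a and -1.79 for Plxna1, so all 3 were called there too. In the same cells Plxna4 was at 0.91, opposite in sign to its value over all cells.

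Within each area alone, Sema3e was higher in L5 in both. In S1, with 16 cells of each layer, it was 4.66 against 0.81, a difference of 3.85 with 4.49, 5.02 and 1.501 in 3 dates. Sema3a was 4.49 against 1.28, a difference of 3.21 with 3.75, 3.37 and 4.58. Both were called, beside 15.1% of 6492 genes, and Plxna1 with -1.09 was not, since 1 of the 3 dates was higher. The layer contrast was known when the members were chosen. Most cells that took Sema3e and Sema3a past the filter were L5 cells. Nothing is read from these calls.

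In V1, with 17 L5 and 21 L4 cells and 2 dates, 18.5% of 6696 genes were called, and the members called were Plxna1 with -1.91 (-6.50 and -2.07) and Plxna4 with -1.02 (-4.51 and -2.02). Date 3 rests on 2 L4 cells here, and nothing is read from these calls on the same known contrast. Sema3e, at 3.54 against 0.23, differed by 3.30 with 2.51 and 4.31 in the 2 dates, but did not pass the filter on low counts in these 38 cells. Sema3a differed by 1.58, with -0.85 in date 3 and 1.64 in date 5.

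Between areas in L4, which the study compared because SOM+ cells of the 2 areas have different shapes there, 4 members passed the filter. None of the 4 was called, beside 3.2% of 9201 genes. Sema3a came closest. Its mean was 1.57 in S1 and 3.24 in V1, and the difference of -1.67 (SD 1.81 over 5 dates) was -1.87, -2.04, -2.06 and -1.68 in dates 3, 5, 7 and 8 and 2.12 in date 2, which rests on 4 S1 and 11 V1 cells. Without date 2 it was -2.60 and called, and it was -0.77 in the first series alone and -2.59 in the second. Sema3e was higher in S1, 1.27 against 0.18, a difference of 1.09 (SD 1.18) with S1 higher in 3 of 5 dates and lower in 1. It did not pass the filter in L4, so it could not be called.

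Among the plexins, Plxna4 had the same sign in every date, as 6.76% of the genes did. Its mean was 3.18 in S1 and 3.74 in V1, a difference of -0.56 that is under the size for a call, and S1 was lower by 0.37, 2.09, 2.82, 0.12 and 2.11 in dates 2, 3, 5, 7 and 8. Plxna1 differed by 0.59 (SD 3.29) and Plxna2 by -0.22 (SD 1.69), both within the spread. The oligodendrocyte markers also parted the areas: all 7 were read in S1 L4 and 6 in V1 L4 (Mag at 0), and the summed level ran from 0 over a median of 644 to 9702 CPM and from 0 over 156 to 3717 CPM. In the cells with low glial and vascular markers the difference was -2.35 for Sema3a and 1.07 for Sema3e.

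**Figure D5:**
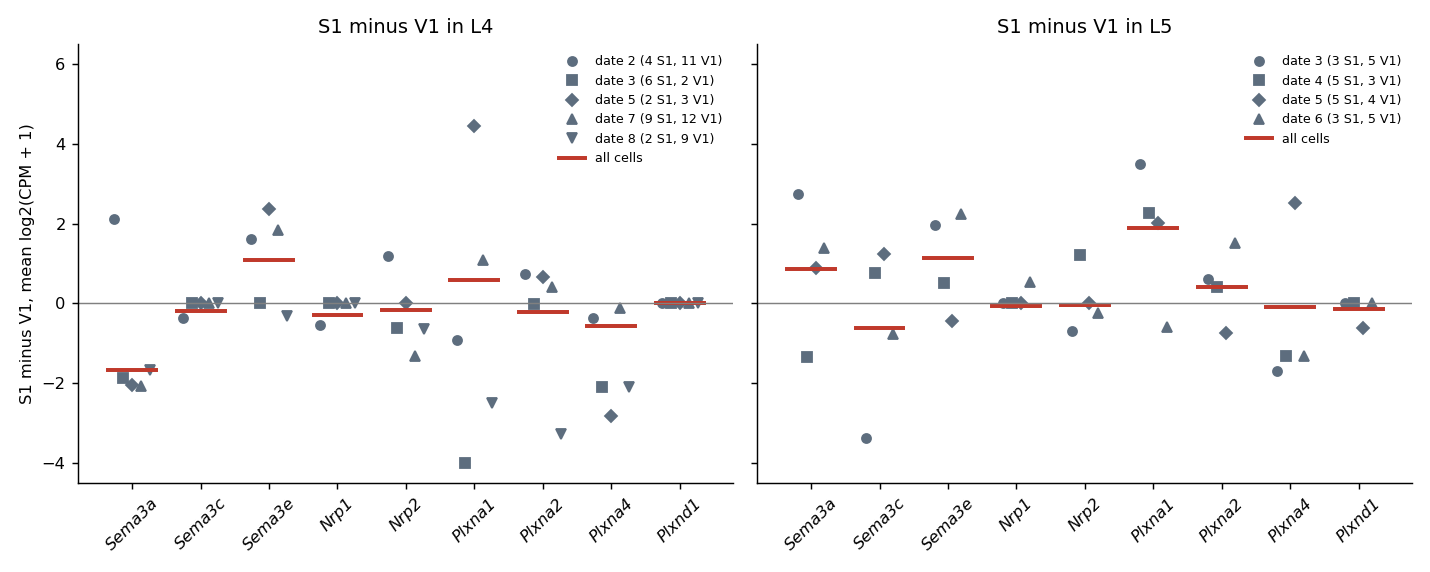
The y axis gives the S1 minus V1 difference of the mean log2(CPM + 1) for each gene on the x axis, in L4 (left, 5 dates) and L5 (right, 4 dates), with grey symbols for dates and red bars for all cells. Sema3a in L4 is below 0 in 4 of 5 dates and Plxna4 in 5 of 5, and in L5 no gene past the filter has 1 sign in all 4 dates.

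In L5 4 members passed the filter, and none of them was called between areas. Of 6402 genes 12.7% were called, and the median difference of the 6402 was 0.24. Plxna1 had the widest gap, with a mean of 3.97 in S1 and 2.09 in V1, and its difference of 1.88 (SD 1.72) was 3.50, 2.26 and 2.002 in dates 3, 4 and 5 and -0.60 in date 6. Sema3e differed by 1.13 (SD 1.26, higher in S1 in 3 of 4 dates) and Sema3a by 0.86 (SD 1.70, 3 of 4). Without date 5 Sema3e was at 1.73, and without date 4 Sema3a was at 1.60, and each was then called. Sema3a was at -0.18 in the cells with low glial and vascular markers, 11 of which are V1 L5.

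The rest of the family was compared in the same cells. Of 22 other semaphorins and plexins 12 passed the filter and 1 was called between layers, which is near the 7.69% of all genes. It was Sema6b, a transmembrane semaphorin that binds plexins A, with 2.90 in L5 and 1.87 in L4, a difference of 1.03 (SD 0.47). The median difference of the 12 was -0.15, beside 0.19 for all 8921 genes. The other secreted class 3 ligands were hardly read: Sema3b in 1.83% of the kept cells, Sema3d in 3.67%, Sema3f in 1.83% and Sema3g in 0.917%. Among semaphorins of the other classes the share ran from 3.67% for Sema5b to 81.7% for Sema6a and 89.0% for Sema6d, both of them transmembrane ligands of plexins A.

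Between areas, Plxna3, the remaining class A plexin, was called in both layers, with 1.17 in S1 and 2.56 in V1 in L4 (-1.39, SD 0.62, lower in 5 of 5 dates) and 1.58 and 2.68 in L5 (-1.10, SD 1.15, lower in 4 of 4). It was the 1 gene called of 12 of these relatives that passed the filter in L4, where 3.2% of all genes were called. In L5 Sema6a was called too, with 5.70 in S1 and 3.60 in V1 (2.09, SD 1.98), so 2 of 9 were called there, beside 12.7% of all genes.

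Genes that act with or after these receptors were read in a median of 67.0% of the kept cells. Of 43 co-receptors and signalling genes 32 passed the filter in the layer contrast, with a median difference of 0.05, and 1 was called, beside 7.69% of all genes. It was Mical2, a flavoprotein that disassembles actin filaments, with 7.53 in L5 and 8.58 in L4 (-1.05, SD 0.89). The collapsin response mediator Dpysl2 was read in 99.1% of the cells and the adhesion protein L1cam, a partner of Nrp1, in 82.6%. Kdr, a receptor of vessels that pairs with neuropilins, was read in 0.917%.

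Between areas in L4 3 of 32 of these genes were called, beside 3.2% of all genes, and all 3 were lower in S1: Pcsk5, a proprotein convertase, with 0.81 against 3.27 (-2.46, SD 1.40), Mras, a small GTPase, with 2.18 against 3.66 (-1.48, SD 1.22), and Arhgap35, a GTPase-activating protein, with 2.56 against 3.84 (-1.28, SD 0.71). In L5 3 of 29 were called, near the 12.7% of all genes, with Arhgef12, a guanine nucleotide exchange factor that binds plexins B, higher in S1 (6.22 against 3.64) along with Dpysl4 (5.60 against 4.26), and Dpysl5 lower (4.07 against 5.39).

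The genes whose values over the 70 first-series cells were most like those of a ligand are given with Pearson's r of log2(CPM + 1), as a description. The cells share 2 layers and 2 areas, which raises r for any pair of genes that differ between these groups, so r after taking out the group means is given too. For Sema3e they were Spon1 (0.68, and 0.48 within groups), St6galnac5 (0.64 and 0.46), Lrrc4c (0.59 and 0.38), Ncald (0.58 and 0.33) and Brinp3 (0.58 and 0.47). For Sema3a they were Tmem199 (0.53 and 0.50), Igfbp3 (0.53 and 0.51), Grm5 (0.50 and 0.46), Tsen34 (0.49 and 0.45) and Gpn1 (0.49 and 0.51). For Sema3c, with reads in 11 of these cells, they were Pdzrn3, Trmt11, Crh, Tmtc2 and Rad18, with r from 0.50 to 0.58, which rests on few cells. The log2 total count of a cell had an r of 0.06 with Sema3e, 0.17 with Sema3a and -0.08 with Sema3c.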

How the data were processed

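Libraries of single SOM+ cells were made by a variant of Smart-seq2, a full-length cDNA method, and read as single ends. The authors aligned the reads to mm10 with STAR 2.4.2a after bcl2fastq 2.20 and deposited read counts per gene, without normalization. They also deposited RPKM values, made with rpkmforgenes and RefSeq gene models. The counting tool and its strand setting are not given in the sources used here. Counts gave every result except the order of the genes by level, which uses the deposited RPKM.

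Entries that share a symbol were summed, and each member had 1 entry. Area and layer came from the labels and the date from the cell's name. A gene was compared where 10 or more of the cells had 32 or more counts of it, and a difference was called at a size of at least 1 with the same sign in every date. Intervals are 95% Clopper-Pearson for shares and 95% Poisson for pooled counts, and 0 counts were taken to allow up to 3. Thinning drew 250000 reads per cell (seed 1). The members, gene lists and comparisons were chosen with earlier results of these data known. Named beside the members are genes of the lists that were called and the 5 genes most like each ligand. List genes named for the share of cells with a read were chosen after their values were seen. The scripts were tested on simulated data. The alternatives changed scaling, pseudocount, depth, unit, filters, cells and dates. Values were computed with NumPy 2.4.6 and pandas 2.3.3 in Python 3.11.15, intervals with SciPy 1.17.1 and figures with matplotlib 3.10.9. TMM scaling, an alternative only, came from edgeR 4.0.16 in R 4.3.3. Positions are from GENCODE M21 and promoters from RefSeq. Electrophysiology and morphology were not analysed here.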

Additional observations from a re-analysis of the deposited data

Results flagged for a closer look

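Some cells outside the comparisons had reads of the members. The 1 V1 L5 cell left out because its Slc17a7 count was above the sum of Gad1 and Gad2, as in an excitatory neuron, had 9.12 log2(CPM + 1) of Nrp2, 8.55 of Plxna1, 8.22 of Plxna4, 7.38 of Sema3e, 6.78 of Plxna2 and 6.60 of Sema3a. Its Nrp2 level of 557 CPM was above that of all kept cells, of which the highest had 173.6 CPM. The 4 S1 L4 cells left out because Sst was at 0 had, pooled, 7.93 of Plxna4, 7.66 of Plxna1, 7.29 of Plxna2, 3.64 of Nrp2 and 2.88 of Sema3e on the same scale. Nrp2 was read in 2 and Sema3e in 1 of them. Neither set has replicates, and no difference from the kept cells was tested.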

How the results depend on the processing

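The layer differences kept their sign under every alternative run for Sema3e, Sema3a and Plxna1, and their size depended on the scale. With a pseudocount of 0.1 they were 5.54 for Sema3e and 3.43 for Sema3a, with a pseudocount of 10 1.80 and 1.31, on deposited RPKM 2.10 and 1.49, and as a median over cells 5.05 and 5.24, where Plxna1 was at -3.75. Leaving out each date gave 3.30 to 3.87 for Sema3e, 2.12 to 2.58 for Sema3a and -1.64 to -1.20 for Plxna1, with 3 members called each time. Sema3a was called in 17 of 17 alternatives with a call, Sema3e in 16 (not after thinning, where too few cells reached 32 counts), and Plxna1 in 14. The exceptions for Plxna1 were a pseudocount of 10 (-0.94), RPKM (-0.93) and the median over cells.

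Between areas in L4 the number of members called was 0 to 1 over the dates left out, with Sema3a called without date 2 and in the second series alone (1 member). In L5 it was 0 to 1, with Sema3a without date 4 and Sema3e without date 5, and 1 (Sema3e) as a median over cells and in cells with at least 4000 genes. With all genes with a count in place of the filter, 4.42%, 1.79% and 7.54% of genes were called in the layer contrast and the area contrasts in L4 and L5. The cause of these changes was not tested. TMM scaling, leaving Rn45s out and dropping cells with reads of 4 endothelial genes changed no call. These genes were Cldn5, Pecam1, Cdh5 and Flt1, and 97 cells remained. At least 1 of the 8 endothelial markers was read in 24 kept cells, so some of those cells stayed in. Scaling alternatives and L4 cells of the 4 dates with L5 cells were run too, the latter and the fit without the highest cell chosen after seeing the data. No paired analysis was possible because the labels name no animal and the sample numbers restart with each date. Reads of Nrp1, Plxnd1 and Sema3c lie in 4, 1 and 11 cells, and after thinning, which left out 3 shallower cells, in 4, 1 and 8. A count of 0 does not show that a gene is absent.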
